A study of Homo sapiens with 26 samples.

Results

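Midkine (MDK) is a secreted growth factor, and its 144-codon coding sequence (CDS), carried by transcript ENST00000395566, was followed codon by codon in Huh7 cells, a line derived from a human hepatocellular carcinoma. MDK is 1 of 12325 transcripts in the deposited counts, and it was selected on the measured values of these data: the place of its stall and its loss of reads were read from the libraries treated for 60 min in the first study. Values from those libraries are therefore given as a description, with no test. The authors also called it sensitive after 10 min and in their second study, so tests and ranks there are not independent of the choice. The cells received PF-06446846, a small molecule that slows translation of selected nascent proteins, or the vehicle, 0.5% DMSO. In study 1 ribosome footprints were sequenced (ribo-seq) after 10 and 60 min with 1.5 μM, 0.3 μM or vehicle, with 3 libraries for each of the 6 groups. In study 2 both ribo-seq and mRNA-seq were made after 60 min with 1.5 μM or vehicle, with 2 libraries for each of the 4 groups. All groups share the same unmodified cell line and the same medium, and cycloheximide entered at harvest rather than before it. Replicates are separate samples of this single line, so the spread between them is that of repeated cultures and library preparations.

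Midkine binds heparin and is the closest relative of pleiotrophin. It signals through cell-surface receptors such as LRP1, syndecans, glypicans, integrins and nucleolin, and it is known for its expression in the embryo and its raised level in many carcinomas, liver carcinoma included. Like other secreted proteins it is made with an N-terminal signal peptide, which emerges first from the ribosome, directs the nascent chain to the endoplasmic reticulum and is then cut off. A ribosome that slows on an mRNA leaves more footprints where it waits.

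The 26 libraries held between 6414227 and 22224137 reads on coding sequences. MDK took 525 to 3605 of them in a ribo-seq library and 4508 to 6744 in an mRNA-seq library, so the counts for single codons were small. Of 9 hepatocyte markers, 8 were named in the table, and together they held 1.99% to 3.18% of the ribo-seq reads of a library, led by AFP, the fetal albumin-like protein of liver. ALB, the serum albumin gene, was not among the named transcripts. Of the markers of other cells, PECAM1 of endothelium lay between 5.20 and 12.1 RPKM, the reads per kilobase of CDS scaled to the CDS reads of the library in the ribo-seq libraries, while PTPRC and COL1A1 were not among the named transcripts.

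The MDK transcript lies on the plus strand of chromosome 11 in GRCh38, at chr11:46381669-46383801, and has 5 exons in the GENCODE annotation, 4 of them coding. The CDS runs from 46382058 to 46383494 with the stop codon. The first 25 codons and the first base of codon 26 lie in exon 2, and the rest of the sequence below lies in exon 3. The first 40 codons are shown because the extra reads under the compound fell there. Capitals mark the 9 codons at which every library treated with 1.5 μM exceeded every vehicle library in all 3 ribo-seq sets (10 min, 60 min and study 2). They are codons 5 to 8, 14 to 16, 19 and 20, counted from the start codon as codon 1. Codon 19 rests on few reads in study 1, with 8, 1 and 1 under 1.5 μM against 0, 1 and 0 under vehicle after 10 min. After 60 min it held 1, 1 and 4 reads against 0, 0 and 0, and in study 2 it held 28 and 23 against 0 and 0. Libraries were compared on reads scaled to their CDS reads. Those with 1 read at codon 19 after 10 min were therefore separated by depth alone.
MDK codons 1 to 40: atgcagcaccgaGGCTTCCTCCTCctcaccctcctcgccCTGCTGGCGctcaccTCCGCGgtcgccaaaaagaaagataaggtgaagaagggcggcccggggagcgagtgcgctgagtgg

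In vehicle-treated cells MDK was an abundant message with many ribosomes. Its mRNA-seq level was 703 RPKM ± 7.85 (SD, n = 2) in the vehicle libraries of study 2, and 1.90% of the 12325 transcripts had a higher level. Its ribo-seq level in the same cells was 583 RPKM ± 34.9 (SD, n = 2), and 3.03% of transcripts were higher. In study 1 the vehicle libraries stood at 347, 534 and 482 RPKM after 10 min and at 374, 366 and 419 RPKM after 60 min, so the vehicle groups of the separate times overlapped.

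Over the whole CDS the ribo-seq level of MDK was lower in treated than in vehicle-treated cells of the same set. After 10 min the libraries stood at 223, 247 and 202 RPKM with 1.5 μM and at 295, 226 and 310 RPKM with 0.3 μM. After 60 min they stood at 143, 174 and 206 RPKM with 1.5 μM and at 241, 306 and 297 RPKM with 0.3 μM. In study 2 they stood at 360 and 336 RPKM with 1.5 μM and at 607 and 558 RPKM with vehicle. In order of the group means, the study 2 vehicle group was highest, followed by the vehicle groups of study 1 at 10 and 60 min, the treated group of study 2, 0.3 μM at 60 and 10 min, and 1.5 μM at 10 and 60 min. Among the last 4 of these groups each pair of neighbours overlapped, so the order of neighbours is not resolved beyond the spread between libraries, while every 0.3 μM library of either time lay above every 1.5 μM library of 60 min. A sum over the CDS mixes a gain at its start with a loss further on, and the values by segment that follow keep these apart.

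The reads moved towards the start codon within 10 min of 1.5 μM PF-06446846. Codon 32 was the place where the cumulative share of reads differed most between 1.5 μM and vehicle after 60 min in study 1, and it is used here as the boundary of the early part. After 10 min, codons 1 to 32 held 60.7%, 53.0% and 45.0% of the MDK reads with 1.5 μM against 9.41%, 13.5% and 7.59% with vehicle. With 0.3 μM they held 28.6%, 15.9% and 21.6%. The 3 groups did not overlap, and 0.3 μM lay between vehicle and 1.5 μM. After 60 min the share was 39.2%, 42.1% and 50.9% with 1.5 μM, 21.8%, 17.4% and 18.3% with 0.3 μM, and 10.7%, 7.46% and 8.65% with vehicle, again without overlap. In study 2 it was 42.6% and 48.4% with 1.5 μM and 13.4% and 12.97% with vehicle. Counting error alone gave a Wilson 95% interval of 57.0% to 64.4% for the highest of these libraries and of 6.49% to 8.57% for the lowest. These intervals do not cover the spread between cultures.

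Over the libraries that did not place the boundary (10 min and study 2), the share in codons 1 to 32 was 37.5 percentage points higher with 1.5 μM than with vehicle. MDK itself was chosen with earlier results of these data known, so the tests of this gene are not independent of that choice. A two-sided exact permutation test with labels exchanged within each set gave p = 0.0167 over 120 arrangements, the smallest value this design can give. The difference was 42.7 points after 10 min (exact permutation p = 0.1, n = 3 and 3) and 32.3 points in study 2 (exact permutation p = 0.333, n = 2 and 2), and neither set could give a lower p on its own. With 0.3 μM after 10 min the share was 11.9 points above vehicle (exact permutation p = 0.1, the smallest possible with n = 3 and 3). At 10 min the share with 1.5 μM was 30.9 points above that with 0.3 μM (exact permutation p = 0.1, n = 3 and 3).

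**Figure D1:**
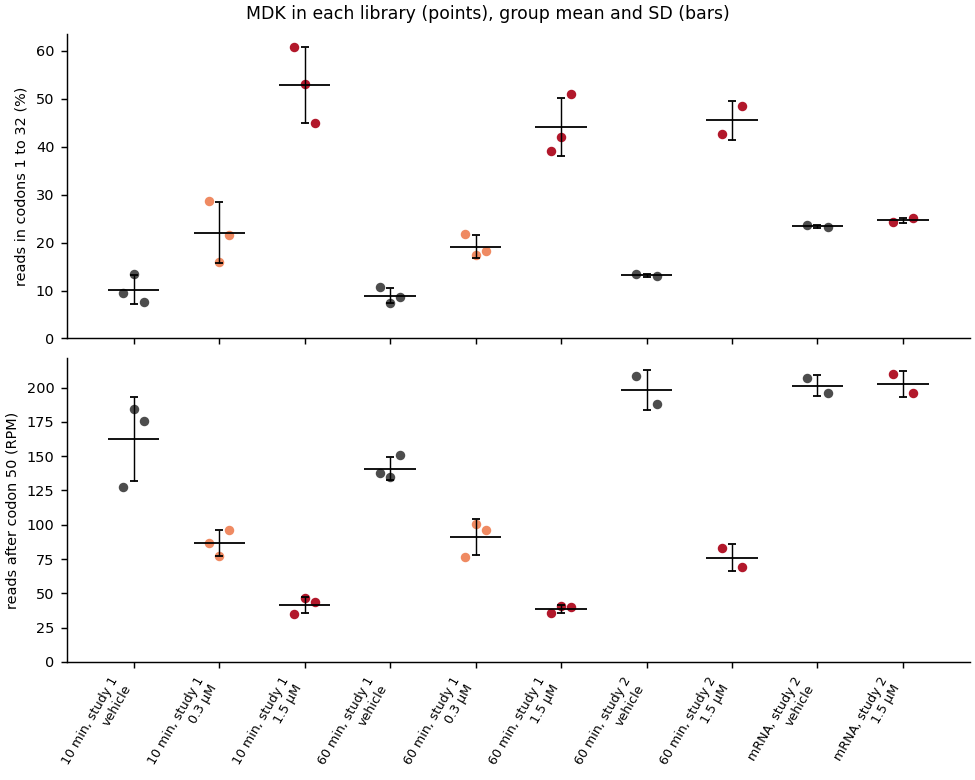
Upper panel, percentage of the MDK reads of each library that fell in codons 1 to 32. Lower panel, MDK reads after codon 50 in RPM, which are reads scaled to the CDS reads of the library. Points are libraries, and black bars are the group mean and SD. In every ribo-seq set the 1.5 μM points lie above vehicle in the upper panel and below it in the lower panel, and in both sets of study 1, which alone had 0.3 μM, that dose lies in between, while the mRNA-seq points lie between 23.2% and 25.0%.

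The cumulative curves show the same values along the whole CDS. The largest excess of the pooled 1.5 μM curve over the pooled vehicle curve, called Dmax, was 0.423 at codon 30 after 10 min, 0.353 at codon 32 after 60 min and 0.325 at codon 34 in study 2, where 1 would mean that all treated reads lie before all vehicle reads. For 0.3 μM it was 0.106 at codon 38 after 10 min and 0.104 at codon 33 after 60 min. Between libraries with the same replicate number, Dmax for 1.5 μM against vehicle ranged from 0.376 to 0.520 after 10 min, from 0.291 to 0.423 after 60 min and from 0.292 to 0.358 in study 2. Vehicle libraries set against each other within their group gave 0.0225 to 0.231 over 14 ordered pairs, below every one of those values. The highest vehicle pair differed most at codon 133, close to the stop codon, and not in the early part. The 0.3 μM pairs gave 0.131 to 0.192 after 10 min. The vehicle pairs of 10 min reached 0.144, so the 0.3 μM pair of replicate 1 (0.192) lay above all of them and those of replicates 2 and 3 (0.131 and 0.142) did not. After 60 min the highest 0.3 μM pair gave 0.185. Vehicle pairs of 60 min reached 0.195 and 0.231, so no 0.3 μM pair of that time lay above all of them. The largest excess of the 0.3 μM pairs lay at codons 39, 125 and 28 after 10 min and at codons 134, 96 and 20 after 60 min, so it was not always in the early part. For 1.5 μM it lay at codons 74, 21 and 31 after 10 min, at codons 26, 35 and 31 after 60 min and at codon 34 in both pairs of study 2.

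**Figure D2:**
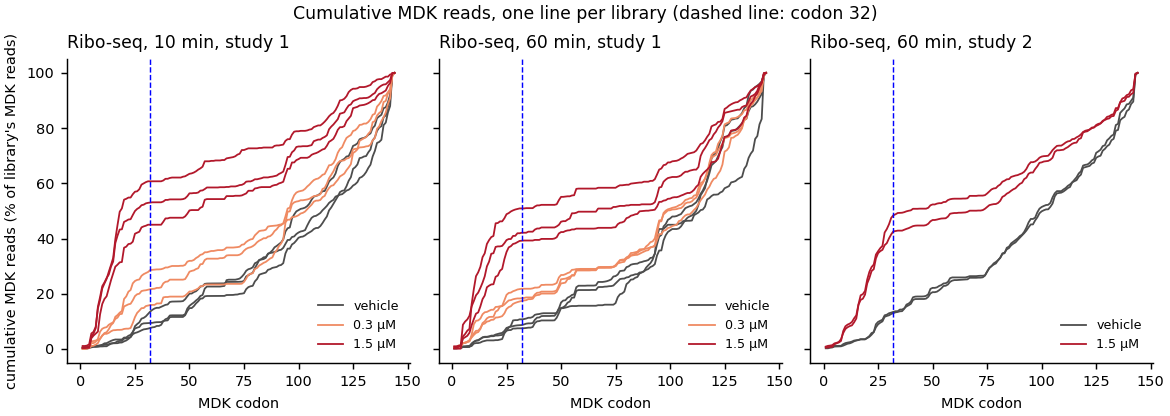
Cumulative percentage of the MDK reads of a library (vertical axis) against the codon (horizontal axis), with a line for each library and a dashed line at codon 32. The 1.5 μM curves reach 39.2% to 60.7% by codon 32 and the vehicle curves 7.46% to 13.5%. The vehicle curves of 60 min part from each other near the stop codon.

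Within the first 40 codons the gain was not at a single codon. After 10 min of 1.5 μM, 15 of the 144 codons (10.4%) were higher in every treated than in every vehicle library, and all 15 lay in codons 1 to 32, with 14 of them in codons 6 to 22. After 60 min 12 codons (8.33%) were higher in this sense, and in study 2 20 codons were (13.9%), in both cases all in codons 1 to 32. With 0.3 μM the count was 3 codons (2.08%) after 10 min and 6 (4.17%) after 60 min. Such a count means little by itself with so few libraries, since mRNA-seq gave 25 codons (17.4%) that were higher with 1.5 μM and 14 that were lower. The mRNA-seq codons were spread over the CDS, with 7 higher in codons 1 to 32, 3 in codons 33 to 50, 10 in codons 51 to 100 and 5 in the rest.

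Codon 16, a GCG triplet, had the highest group mean of the early part with 1.5 μM in study 2, although codon 28 was highest in replicate 5. It had 7.71 and 5.84 RPM with 1.5 μM and 0.437 and 0.338 RPM with vehicle. After 10 min it had 6.55, 7.18 and 2.10 RPM with 1.5 μM against 0.290, 0 and 0.353 RPM with vehicle. The treated libraries were thus above all vehicle libraries, though replicate 3 of 1.5 μM was well below the other two. With 0.3 μM after 10 min codon 16 had 2.87, 0.0465 and 1.67 RPM, where the 0.0465 RPM of replicate 2 is a single read, so this group overlapped vehicle.

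Codon 20, also GCG, had 3.06, 2.87 and 4.52 RPM with 1.5 μM after 10 min and 1.04, 0.961 and 1.77 RPM with vehicle. In study 2 it had 6.32 and 5.99 RPM with 1.5 μM and 1.31 and 1.13 RPM with vehicle. Codon 5, a GGC triplet, was higher without overlap in all 5 ribo-seq comparisons of a dose with vehicle. It had 3.78, 4.31 and 2.74 RPM with 1.5 μM, 0.890, 2.33 and 2.44 RPM with 0.3 μM, and 0.348, 0.721 and 0.471 RPM with vehicle after 10 min. In study 2 the step at codon 5 was small, with 0.985 and 1.33 RPM against 0.874 and 0.788 RPM. After 60 min in study 1 codon 5 had 1.57, 5.58 and 3.91 RPM with 1.5 μM and 0.468, 0.451 and 0.694 RPM with vehicle. Whether the step at this codon differed between the studies was not tested.

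Windows drawn after the profiles were seen summarise the pattern. Codons 6 to 12 went from 1.36 to 18.4 RPM after 10 min, from 3.39 to 11.8 RPM after 60 min and from 3.16 to 10.3 RPM in study 2 (group means, vehicle to 1.5 μM). Codons 13 to 22 went from 5.06 to 22.5 RPM after 10 min, from 3.16 to 12.8 RPM after 60 min and from 8.14 to 30.4 RPM in study 2. Codons 24 to 28 overlapped between 1.5 μM and vehicle at each of the 5 codons in all 3 sets. In study 2 the gain reached further, since codons 29 to 32 were higher without overlap there and overlapped in both sets of study 1. With 0.3 μM codons 6 to 12 had 5.61 RPM after 10 min and 6.91 RPM after 60 min. Codons 13 to 22 had 10.5 and 7.59 RPM at these times. Each of these group means lay between vehicle and 1.5 μM. Whether single libraries overlapped in these narrower windows is not given here. Over codons 1 to 32 the libraries of 10 min held 36.4, 15.5 and 28.9 RPM with 0.3 μM. With vehicle they held 14.1, 31.2 and 15.8 RPM there, which overlapped. After 60 min these codons held 22.7 to 23.6 RPM with 0.3 μM and 11.8 to 17.3 RPM with vehicle, without overlap.

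**Figure D3:**
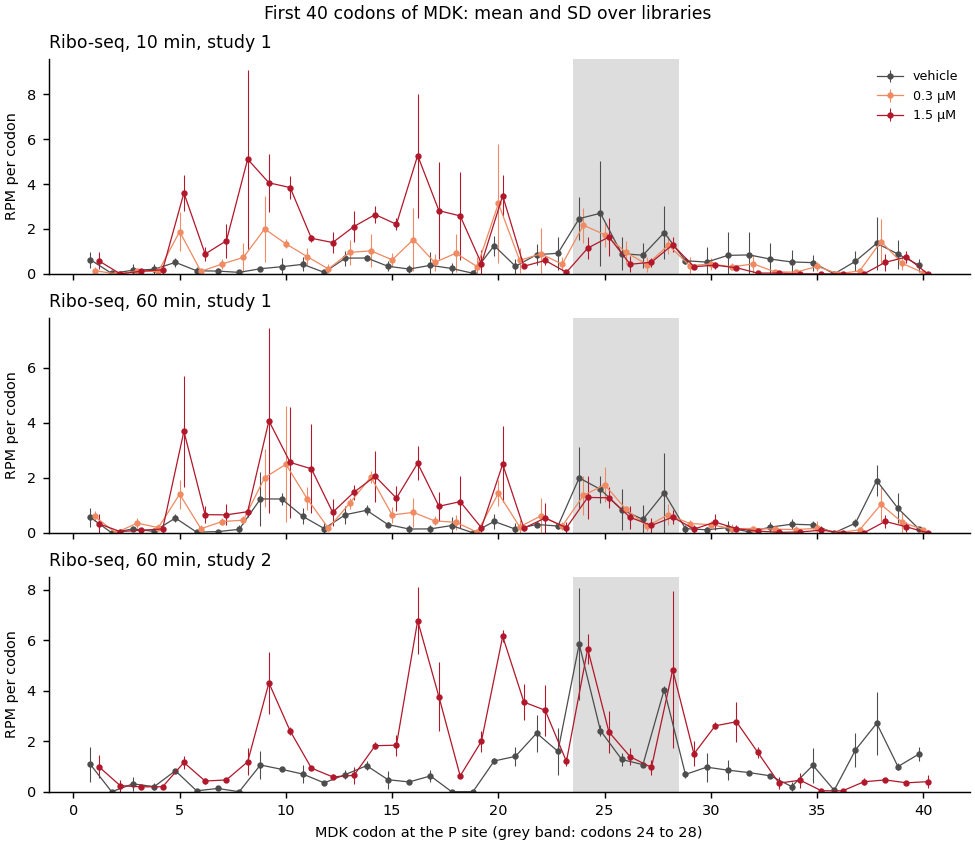
MDK reads per codon over the first 40 codons, in RPM, as the mean and SD over libraries for vehicle, 0.3 μM and 1.5 μM. The grey band marks codons 24 to 28, where the 1.5 μM and vehicle libraries overlapped in every set, and the separated 1.5 μM peaks lie to its left, with codons 29 to 32 added in study 2.

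Past the early part the footprints were fewer over the whole remaining length. Reads after codon 50 stood at 35.2, 46.6 and 43.5 RPM with 1.5 μM after 10 min, at 86.7, 77.4 and 96.3 RPM with 0.3 μM, and at 128, 185 and 176 RPM with vehicle. No library of a dose overlapped another dose. The log2 change for 1.5 μM against vehicle was -1.87 (SE 0.15, edgeR quasi-likelihood test, Benjamini-Hochberg adjusted p = 2.41e-05, n = 3 and 3), a 3.66-fold lower level. In this comparison 195 of 10745 transcripts tested (1.81%) passed an FDR of 0.1, and the fall of MDK was rank 6 from the lowest. That rank was 6 to 16 when a library was left out, 56 by DESeq2 and 82 without a filter on low counts. The median log2 change over all transcripts tested was 0.0015, a value that the TMM scaling of these counts sets near 0. The fall passed the test under each of the 13 alternatives tried, and over the whole CDS it was smaller, at -0.96.

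With 0.3 μM after 10 min the log2 change after codon 50 was -0.87 (SE 0.16, edgeR with Benjamini-Hochberg adjusted p = 0.697, n = 3 and 3), and it did not pass. None of 10855 transcripts (0%) passed in that comparison by edgeR. An unadjusted p under 0.05 was found for 110 of them, a smaller share than evenly spread p-values would give. DESeq2 called 4 transcripts there, all lower, and gave MDK a Benjamini-Hochberg adjusted p of 0.00185, so the call for the low dose depends on the tool. The 95% interval of the log2 change in edgeR, without adjustment, was -1.22 to -0.53.

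After 60 min in study 1, the set on which MDK was chosen, reads after codon 50 stood at 35.5, 40.5 and 39.996 RPM with 1.5 μM, at 76.3, 101 and 96.0 RPM with 0.3 μM and at 138, 135 and 151 RPM with vehicle. The log2 changes were -1.86 (SE 0.13) and -0.63 (SE 0.14). These values were used by the choice of the gene and carry no test. In this contrast 19 of 10709 transcripts (0.177%) passed the FDR for 1.5 μM, all lower. The 1.5 μM values of 10 and 60 min lay close together, and the ordering of doses was the same at both times.

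In study 2 reads after codon 50 were 82.9 and 69.3 RPM with 1.5 μM and 208 and 188 RPM with vehicle. The log2 change was -1.39 (SE 0.09, edgeR, Benjamini-Hochberg adjusted p = 2.99e-05, n = 2 and 2), a 2.61-fold lower level, and 29 of 10993 transcripts (0.264%) passed. The fall held from segment to segment. Codons 51 to 100 went from 73.8 to 28.8 RPM and codons 101 to 139 from 92.7 to 34.6 RPM (group means, vehicle to 1.5 μM). Codons 33 to 50, next to the early part, went from 20.4 to 6.05 RPM. After 10 min the same 3 segments, in order along the CDS, went from 13.3 to 3.58, from 53.8 to 16.4 and from 77.3 to 21.3 RPM.

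The reads of codons 1 to 50, tested with library sizes from the whole CDS, were higher with 1.5 μM. After 10 min the log2 change was 0.77 (SE 0.22, edgeR, Benjamini-Hochberg adjusted p = 0.0418, n = 3 and 3). In this window 1161 of 7367 transcripts (15.8%) passed, 1081 of them higher, and the median log2 change over all transcripts was 0.26, so a gain near the start codon at 10 min was common and was not particular to MDK. The call was lost without vehicle replicate 1 (log2 change 0.54, edgeR adjusted p = 0.194), without 1.5 μM replicate 1 (0.69, adjusted p = 0.149) and without 1.5 μM replicate 2 (0.70, adjusted p = 0.174). In study 2 the log2 change was 0.47 (SE 0.15, edgeR, Benjamini-Hochberg adjusted p = 0.441, n = 2 and 2), which did not pass, and 15 of 8779 transcripts (0.171%) did, with a median over all transcripts of 0.04.

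**Figure D4:**
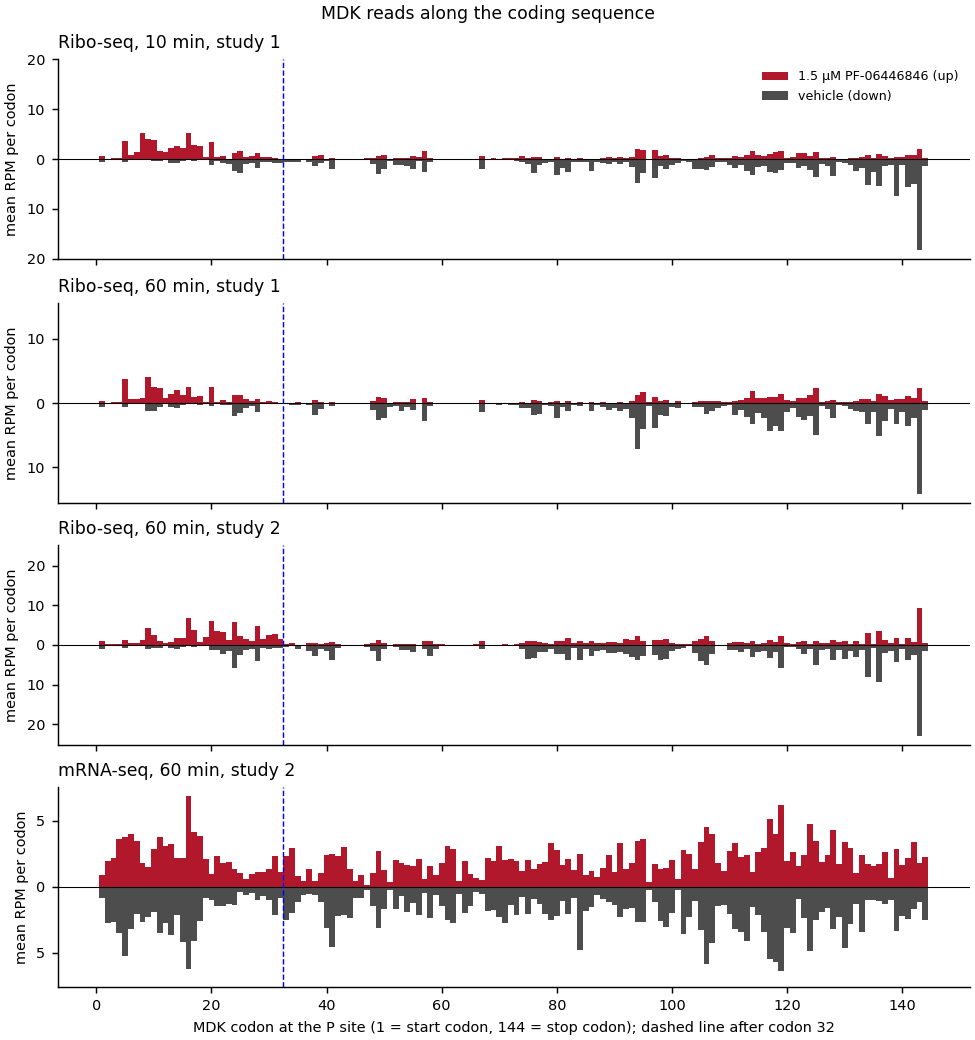
Mean MDK reads per codon in RPM, with 1.5 μM drawn upwards and vehicle drawn downwards, against the codon at the ribosomal P site. The dashed line follows codon 32. The 3 ribo-seq panels show more reads before the line and fewer after it with 1.5 μM, and the mRNA-seq panel is close to symmetric, with CDS levels of 305 RPM with 1.5 μM and 304 RPM with vehicle.

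Codon 143, the last before the stop codon, held the most reads of any codon in each vehicle ribo-seq library except replicate 2 of 60 min, where codon 119 did. It had 13.6, 26.4 and 14.5 RPM with vehicle after 10 min against 0.291, 2.77 and 3.05 RPM with 1.5 μM. The vehicle libraries of 60 min varied widely there, at 26.5, 4.12 and 11.7 RPM. Without the last 5 codons the log2 change after codon 50 was -1.72 after 10 min and -1.40 in study 2, and both passed the FDR.

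The mRNA was measured to ask whether less message accompanied the fewer footprints. MDK mRNA-seq reads on the CDS were 314 and 296 RPM with 1.5 μM and 301 and 306 RPM with vehicle, and the groups overlapped. The log2 change was -0.0073 (SE 0.081, edgeR, Benjamini-Hochberg adjusted p = 0.999, n = 2 and 2) with a 95% interval of -0.19 to 0.17, that is a ratio between 0.878 and 1.13. None of 11812 transcripts (0%) passed by edgeR, and DESeq2 called 1. In edgeR 228 had an unadjusted p under 0.05, a smaller share than evenly spread p-values would give. Along the CDS the mRNA-seq reads were spread with 24.2% and 25.0% in codons 1 to 32 under 1.5 μM and 23.6% and 23.2% under vehicle, a difference of 1.20 points (exact permutation p = 0.333, the smallest possible with n = 2 and 2).

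Translational efficiency (TE), the ribo-seq level divided by the mRNA-seq level of the same culture, fell after codon 50. It was 0.396 and 0.354 with 1.5 μM and 1.01 and 0.958 with vehicle. In a single fit over both kinds of library the log2 change of TE was -1.37 (SE 0.13, edgeR interaction term, Benjamini-Hochberg adjusted p = 0.00147, n = 2 in each of 4 groups), a 2.59-fold lower TE, and 15 of 11524 transcripts (0.130%) passed, all lower. With the culture as a block, since both libraries of a culture come from the same cells, the log2 change was also -1.37. By segment, the TE ratio of 1.5 μM to vehicle was 1.95 in codons 1 to 32, 0.322 in codons 33 to 50, 0.368 in codons 51 to 100 and 0.393 in codons 101 to 139. The ratio was thus above 1 in the early part and nearly level from there to codon 139. Over the whole CDS it was 0.595, which sums a gain and a loss.

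Among all transcripts with at least 10 reads in each pooled group, the Dmax of MDK ranked high. It was divided by the root mean square of Dmax in bins of 300 transcripts with similar read counts, which gave a Z-score. The Z-score was 5.49 after 10 min, rank 4 of 11422 transcripts, and 9.06 in study 2, rank 2 of 11405. In the bin of MDK the median Dmax was 0.0516 after 10 min and 0.0231 in study 2. The authors used a Z-score of Dmax to pick sensitive genes in these same sets, so these ranks are not independent of the choice of MDK. In the 60-min set used to choose MDK the Z-score was 7.12. With 0.3 μM the Z-score was 2.31 after 10 min, rank 189, and 3.51 after 60 min, rank 7. The 60-min value with 0.3 μM uses the vehicle libraries of the set on which MDK was chosen. In mRNA-seq it was 1.12, rank 3343.

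The receptors of midkine were followed in the same fits. Of 21 other ligands and receptors listed, 14 were tested after codon 50 at 10 min, at 60 min and in study 2, and none passed the FDR with 1.5 μM at any of them. Over all transcripts tested 1.81%, 0.177% and 0.264% passed, so 0 of 14 is near these shares and is not a result about the receptors. Their median log2 changes were -0.07, -0.01 and 0.01, beside 0.0015, 0.0020 and 0.0007 over all transcripts tested. Pleiotrophin (PTN) and the receptors PTPRZ1 and ALK were not among the named transcripts. GPC3, a glypican abundant in liver carcinoma, changed by -0.05 (SE 0.12) at 10 min and by -0.04 (SE 0.06) in study 2 on the log2 scale. SDC4, a syndecan co-receptor, changed by 0.11 (SE 0.20) and 0.03 (SE 0.13), and LRP1, the endocytic receptor that also binds midkine, by 0.35 (SE 0.13) and 0.04 (SE 0.06). In codons 1 to 50 at 10 min, 3 of 11 tested members were higher, where 15.8% of all transcripts tested passed and most of those were higher, so this count is not a result about the receptors. They were the Wnt co-receptor LRP6, at a log2 change of 1.38 (SE 0.35), nucleolin (NCL), at 0.74 (SE 0.19), and NOTCH2, at 0.78 (SE 0.24).

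The enzymes that build heparan sulfate, the chain to which midkine binds, were followed in the same way. Of 16 listed, 14 were tested after codon 50 and none passed with 1.5 μM at 10 min, at 60 min or in study 2, with medians of 0.10, -0.0035 and 0.03. In mRNA-seq 15 were tested and none passed. The shares over all transcripts were 1.81%, 0.177% and 0.264% after codon 50 and 0% in mRNA-seq, near the 0 of these enzymes.

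Other secreted growth factors were compared next. Of 22 listed symbols, among which CCN2 and CTGF name the same gene, 13 were tested after codon 50 at 10 and 60 min and 14 in study 2, and none passed with 1.5 μM, which is near the 1.81%, 0.177% and 0.264% of all transcripts. The medians of their log2 changes were 0.17, 0.0032 and 0.08. IGF2, an insulin-like growth factor translated at a higher RPKM than MDK in vehicle-treated cells of study 2 (899 RPKM in ribo-seq), changed by 0.32 (SE 0.13) at 10 min and 0.03 (SE 0.07) in study 2. HDGF, a growth factor with a heparin-binding domain whose mRNA was at 933 RPKM, changed by -0.49 (SE 0.13, edgeR, Benjamini-Hochberg adjusted p = 0.109, n = 3 and 3) and by 0.10 (SE 0.06). In codons 1 to 50 at 10 min, where 15.8% of all transcripts tested passed in the broad gain described above, 5 of 11 tested members were higher, namely IGF2, PDGFA, TGFB2, GRN and CCN2, with log2 changes from 0.77 to 1.04. No member of the 3 lists apart from MDK passed for TE after codon 50 in study 2, where 0.130% of all transcripts did, so this is not a result about the members.

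**Figure D5:**
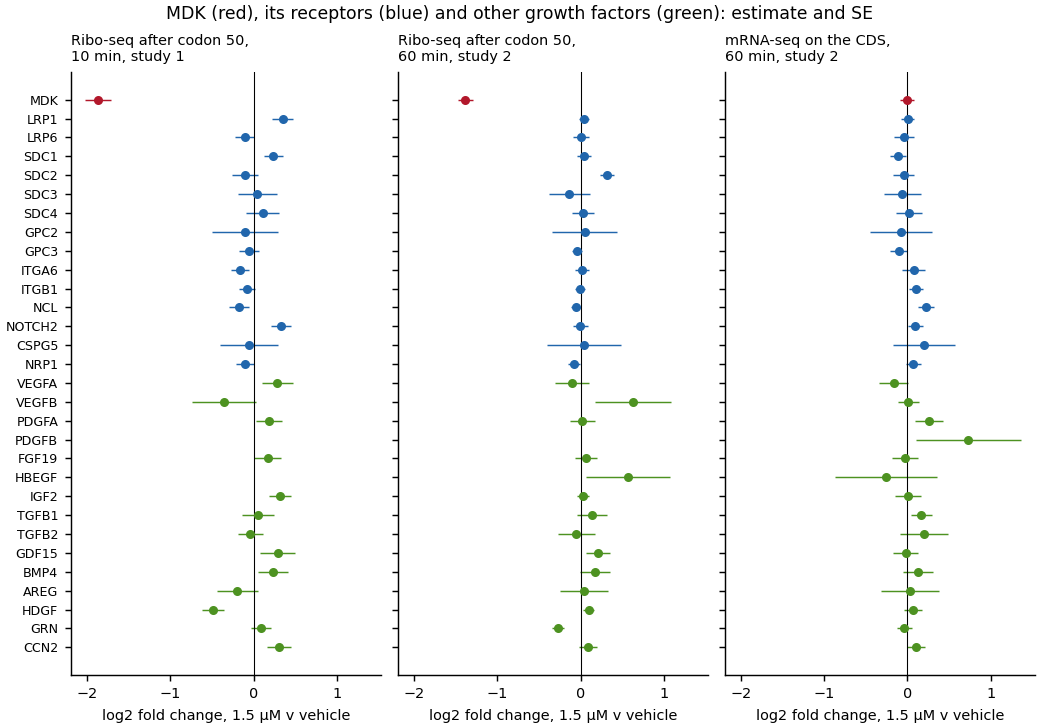
Log2 fold change with its SE, 1.5 μM against vehicle, for MDK (red), its listed receptors (blue) and other secreted growth factors (green), in ribo-seq after codon 50 at 10 min and in study 2 and in mRNA-seq. MDK stands at -1.87 and -1.39 in the ribo-seq panels and at -0.0073 in the mRNA-seq panel, and no other gene shown passed the FDR.

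The transcripts whose reads after codon 50 followed those of MDK most closely were sought over the 22 ribo-seq libraries, with log2 values centred within the 10-min set, the 60-min set and study 2. Over 9420 transcripts with a mean of at least 50 such reads the median Pearson r was 0.05, and 20 exceeded 0.9. The highest were PCBP1 (r = 0.977), RPL27 (0.954), CD99 (0.952), BCAP31 (0.952) and PCBP2 (0.951). PCBP1 and PCBP2 encode related RNA-binding proteins, RPL27 a protein of the large ribosomal subunit, CD99 a cell-surface glycoprotein and BCAP31 a chaperone of the endoplasmic reticulum. The paper states that reads of PCBP1 and PCBP2 mostly map to both, so the values of these genes are not separate. The libraries are common to all of these values, and the centring left the differences between doses in them. A shared fall with the compound therefore raises r, and the correlations are a description. The paper lists all of these genes, like MDK, as sensitive after 60 min. In study 2 the log2 changes after codon 50 were -1.34 for PCBP1, -1.50 for RPL27, -0.79 for CD99, -1.07 for BCAP31 and -0.91 for PCBP2, beside -1.39 for MDK. The study 2 libraries were among those used to pick these genes, so their falls there are not independent of that choice.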

How the data were processed

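Ribo-seq and mRNA-seq were made from Huh7 cells. The authors removed adapters and ribosomal RNA, aligned reads with Bowtie 1.1.2 to a set of GRCh38 isoforms picked by kallisto 0.42.5, kept reads with up to 5 best sites, assigned each read to a P-site codon and deposited raw counts by codon, without normalization. Reads with several sites can be shared between paralogs. MDK, its boundary codon and the gene lists were chosen with earlier results of these data known. Transcripts were named from GENCODE (11270 of 12325), and the sequence came from its transcripts.

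Counts after codon 50, in codons 1 to 50 or on the CDS were fitted with edgeR 4.0.16 (filterByExpr, TMM, quasi-likelihood) in R 4.3.3. A fit held the groups compared, Benjamini-Hochberg adjustment ran over all transcripts tested, and the threshold was an FDR of 0.1. TE was an assay-by-treatment interaction. For shares, two-sided exact permutation tests were run in Python 3.11.15, and intervals cover counting error. RPM is reads per 1000000 CDS reads of a library, and RPKM divides it by the CDS length in kilobases. Dmax pooled replicates. Alternatives were DESeq2 1.42.0, its size factors in edgeR, no filter, a replicate or culture block, other codon ranges and leaving out each library. The fits were also run on simulated counts, and no outcome of that run is given here.

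Same-numbered libraries deviated together for 0.3 μM and vehicle at 10 min (correlations of deviations from group means 0.171, 0.111 and 0.524), each over the limit of 0.1 for pairing. The values given for that comparison are unpaired, and the paired ones (edgeR adjusted p = 0.149 after codon 50, exact permutation p = 0.25 for the share) changed no call. For 1.5 μM and vehicle (0.235, 0.208 and 0.0461) replicate 3 missed that limit, so those libraries were not taken as paired. The 2 pairs of study 2 are too few for this check. Named genes were MDK, members of the midkine and growth factor lists past the FDR in any comparison, up to 6 others by role, and the 5 transcripts most correlated with MDK.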

Additional observations from a re-analysis of the deposited data

How the results depend on the processing

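Of 106 alternatives to the 9 tested MDK results, 99 kept direction and side of the threshold. For 0.3 μM after codon 50 at 10 min, DESeq2 gave -0.87 and passed. With the replicate number as a block (replicate block), the gain of codons 1 to 50 in study 2 was 0.46 and passed (edgeR adjusted p = 0.0230), and the paired share difference of 37.5 points gave an exact permutation p = 0.0625, the smallest its 32 sign arrangements allow. The block changed no other call. Leaving out each library gave 0.54 to 1.05 for codons 1 to 50 at 10 min, with 3 of 6 calls lost, and -0.034 to 0.020 for mRNA-seq, which was 0.020 without 1.5 μM replicate 5. Leaving out a library of study 2 leaves 1 in a group, assumed to vary like the others. The number of transcripts called was less stable than the MDK values. After codon 50 at 10 min the 195 became 298 without a filter, 604 by DESeq2, 1181 with the block, 94 over the whole CDS and 25 to 1674 without a library, with 25 without 1.5 μM replicate 2 and 1674 without vehicle replicate 3. The 29 of study 2 became 108 with the block, 13 over the whole CDS and 26 to 135 without a library. The 1161 of codons 1 to 50 at 10 min became 260 to 1534 and the 15 of study 2 became 35 with the block and 8 to 30 without a library. The 15 for TE became 4 over the whole CDS and 6 to 210 without a library. In every case the cause was not tested. Depth limits single codons, where a library often held under 50 MDK reads.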

Other observations

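The mean codon position of MDK footprints comes from the same codon counts as the shares and Dmax above, so it is not separate evidence. After 10 min the mean position was 47.2, 56.6 and 63.4 with 1.5 μM, 85.3, 93.7 and 84.7 with 0.3 μM and 102, 99.3 and 96.2 with vehicle. The groups did not overlap. In study 2 it was 68.8 and 64.6 with 1.5 μM and 93.7 and 93.6 with vehicle. In mRNA-seq it was 74.5 and 75.4 with 1.5 μM and 78.4 and 72.9 with vehicle, which overlapped.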
